A study of Rattus norvegicus with 16 samples.

Results

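The 3 genes described here encode the 2 main dopamine receptors, Drd1 (ENSRNOG00000023688) and Drd2 (ENSRNOG00000008428), and tyrosine hydroxylase, Th (ENSRNOG00000020410). They were chosen by name, with earlier results of these data known, because dopamine has been linked to the fetal clock as a maternal signal. All 3 were measured in fetal tissue, so Th here is that of the fetus and not of the mother. They are 3 of 32883 genes in the deposited table. Dopamine is made in neurons from tyrosine, which tyrosine hydroxylase converts to L-DOPA in the rate-limiting step. The D1 receptor couples to stimulatory G proteins and raises cyclic AMP, whereas the D2 receptor couples to inhibitory G proteins and lowers it. In the fetal suprachiasmatic nuclei (SCN), the hypothalamic site of the central circadian clock, D1 receptors are present before birth, and dopaminergic drugs given to the mother are known to set the phase of the fetal clock.

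RNA-Seq was performed on fetal SCN of Wistar rats kept in constant darkness, in 16 libraries. In Group A the mothers had sham surgery of the SCN and were fed ad libitum, and in Group B the mothers had their SCN lesioned and had access to food for a restricted part of the day. Each group gave 1 library at each of 8 circadian times (CT) 3 h apart, from CT0 to CT21, and CT12 was the onset of locomotor activity in Group A and of food-related activity in Group B. By the methods, each library pooled the SCN of 8 fetuses of 1 litter in Group A and of 5 to 10 in Group B, punched from frozen sections. The sample titles give 8 in both groups. The labels place the fetuses at embryonic age 17, whereas the methods of the study give a later day. There was no second litter of the same group and time, so each circadian time is also a different mother. The error of every comparison below is the scatter between libraries. It holds differences between litters and any differences between circadian times that the fitted model leaves out. In these bulk samples, fewer cells of a type and less RNA per cell cannot be told apart. Markers of the SCN and of neighbouring regions were not checked, since no table used here gives symbols for the Ensembl identifiers. For the same reason the other genes of the dopamine pathway were not analysed here.

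In the RefSeq annotation of assembly GRCr8, Drd1 lies on chromosome 17, Drd2 on chromosome 8 and Th on chromosome 1. Transcription of Th is known to depend on a cyclic AMP response element (CRE) close to its start, and E-boxes and CREs are the elements through which the core clock and cyclic AMP reach many promoters. The windows of 250 bases before the RefSeq start of the 3 genes were searched on both strands for the E-box CACGTG and for TGACG, the core of a CRE. The E-box was absent from all 3 windows and occurred in 5.59% of 33465 windows of the same length. TGACG was present only in the window of Th, as 2 overlapping copies on opposite strands that form a full CRE from 69 to 62 bases before the start. The annotated span of Th begins 58 bases before that start, so the element lies 11 to 4 bases before the edge of the span. Of the 33465 windows, 18.2% held at least 1 copy. The sequence of Th is shown because it holds this element, given in capitals, and that of Drd2 as the receptor window without it. Both are 5′ to 3′ on the strand of the gene and only as far as the bases upstream of the annotated gene span. The window of Drd1 lies inside its annotated gene span and is not printed.

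Th, minus strand, chr1:207508277-207508468: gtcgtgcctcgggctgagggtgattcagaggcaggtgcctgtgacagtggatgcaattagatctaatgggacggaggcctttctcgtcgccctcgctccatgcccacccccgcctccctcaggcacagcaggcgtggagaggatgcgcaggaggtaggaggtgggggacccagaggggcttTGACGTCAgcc

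Drd2, plus strand, chr8:58605153-58605402: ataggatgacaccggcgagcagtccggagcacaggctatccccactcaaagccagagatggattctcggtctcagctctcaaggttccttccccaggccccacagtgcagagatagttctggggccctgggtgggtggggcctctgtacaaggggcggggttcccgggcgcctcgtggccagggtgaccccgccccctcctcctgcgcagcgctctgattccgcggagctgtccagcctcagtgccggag

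Levels are given as CPM, the counts scaled to a common library size, with TMM factors that correct each library total for differences in composition. The library totals ranged from 10047500 to 18738585 counts. A gene was tested where it reached 1.5 CPM by library total in at least 3 libraries, which 13685 genes (41.6% of the table) did. Drd1 and Th reached it in all 16 libraries and were tested, whereas Drd2 reached it in 2 and was not. CPM depends on transcript length, so the levels of the 3 genes were not compared with each other.

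Drd1 was detected in every library, with 208 to 506 counts. In Group A its CPM was 18.3 at CT0, 20.4 at CT3, 19.1 at CT6, 26.9 at CT9, 22.6 at CT12, 25.2 at CT15, 26.5 at CT18 and 22.0 at CT21. In Group B it was 21.7 at CT0, 25.3 at CT3, 26.1 at CT6, 27.1 at CT9, 29.7 at CT12, 25.03 at CT15, 27.0 at CT18 and 25.1 at CT21. CT0 held the lowest value of each group, and the highest values were those of CT9 in Group A and CT12 in Group B. The mean was 22.6 ± 3.30 CPM in Group A and 25.9 ± 2.28 CPM in Group B (SD, n = 8 litters each), and the ranges of the groups overlapped. Counting error alone gave 95% Poisson intervals of 15.9 to 21.0 CPM for the lowest library (Group A, CT0), and these intervals cover counting error only. Libraries that are neighbours in the order of levels had overlapping intervals. The interval of the highest library (Group B, CT12) was 26.96 to 32.65 CPM and did not overlap that of the lowest.

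Th had 67 to 224 counts. In Group A its CPM was 12.1 at CT0, 7.09 at CT3, 7.04 at CT6, 8.12 at CT9, 7.26 at CT12, 6.24 at CT15, 7.42 at CT18 and 5.67 at CT21. In Group B it was 10.0 at CT0, 6.52 at CT3, 10.8 at CT6, 5.78 at CT9, 5.25 at CT12, 20.1 at CT15, 6.07 at CT18 and 8.58 at CT21. A single library, that of Group B at CT15, stood far above all others, with a Poisson interval that did not overlap that of the next highest library, and CT0 was the highest time of Group A. The mean was 7.61 ± 1.94 CPM in Group A and 9.14 ± 4.88 CPM in Group B (SD, n = 8), and without the CT15 library the mean of Group B was 7.57 ± 2.20 CPM (n = 7). Across all expressed genes the CT15 library of Group B did not stand out by number: 52 genes were at least 2-fold above the median of the other libraries in it, against 32 to 320 genes (median 70) over the 16 libraries.

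Drd2, at 5 to 29 counts per library and 228 in all, was near the limit of detection. In Group A its CPM was 1.496 at CT0, 1.01 at CT3, 1.16 at CT6, 2.33 at CT9, 0.744 at CT12, 0.640 at CT15, 1.18 at CT18 and 1.09 at CT21. In Group B it was 0.794 at CT0, 0.919 at CT3, 1.79 at CT6, 1.45 at CT9, 0.829 at CT12, 1.17 at CT15, 1.36 at CT18 and 0.477 at CT21. The highest value of Group A was at CT9 and that of Group B at CT6, and the ranges of the groups overlapped over most of their extent. The mean was 1.21 ± 0.5262 CPM in Group A and 1.10 ± 0.424 CPM in Group B (SD, n = 8). Counting error accounted for 58.8% of the variance of its log2 CPM. The share was 18.7% for Drd1 and 9.37% for Th, and without the CT15 library of Group B it was 17.6% and 19.3%.

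**Figure D1:**
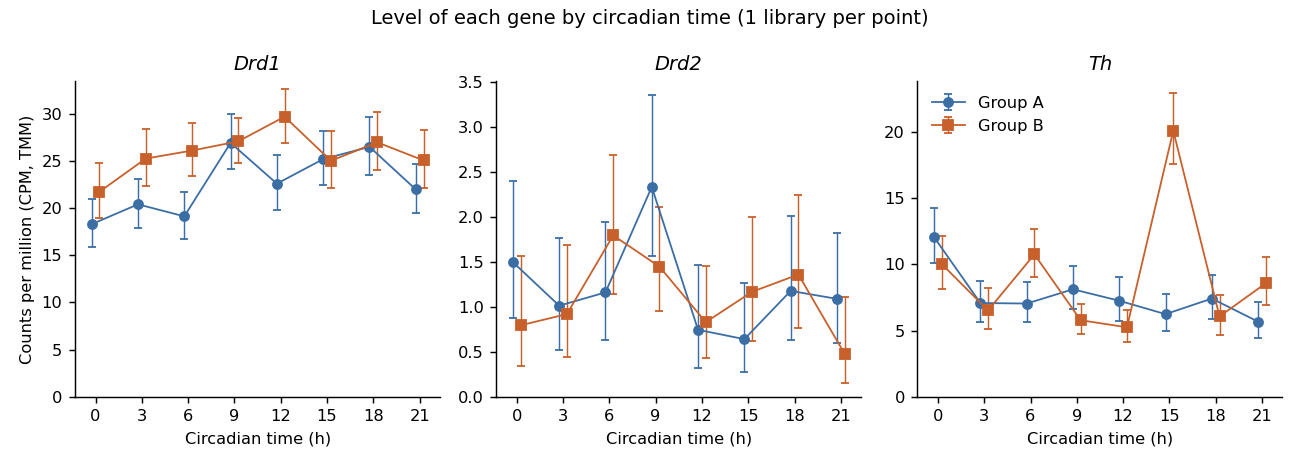
CPM (TMM scaled, from 0) against circadian time in hours for Drd1, Drd2 and Th; each point is 1 library, Group A in blue circles and Group B in orange squares, and the bars are 95% Poisson intervals of the count. Drd1 was higher in Group B at 7 of 8 times, by little at CT9 (ratio 1.006) and CT18 (ratio 1.018). The intervals of Drd2 are wide for its level. That of Group A at CT9 (1.561 to 3.348 CPM) still lies above that of Group B at CT21 (0.155 to 1.112 CPM). The Th value of 20.1 CPM at CT15 of Group B stands above the other 15.

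The genes differed in how much they varied between libraries. The SD of log2 CPM over the 16 libraries was 0.198 for Drd1, higher than in 80.8% of the 2803 tested genes with a mean CPM within a factor of 1.5. For Th it was 0.495, higher than in 95.4% of 1968 such genes. Without the CT15 library of Group B, the SD of Th was 0.351, still above 86.0% of those genes. Drd2, with an SD of 0.552, was not ranked, because at its level the tested genes are those that reached 1.5 CPM in 3 libraries, which Drd2 did not.

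**Figure D2:**
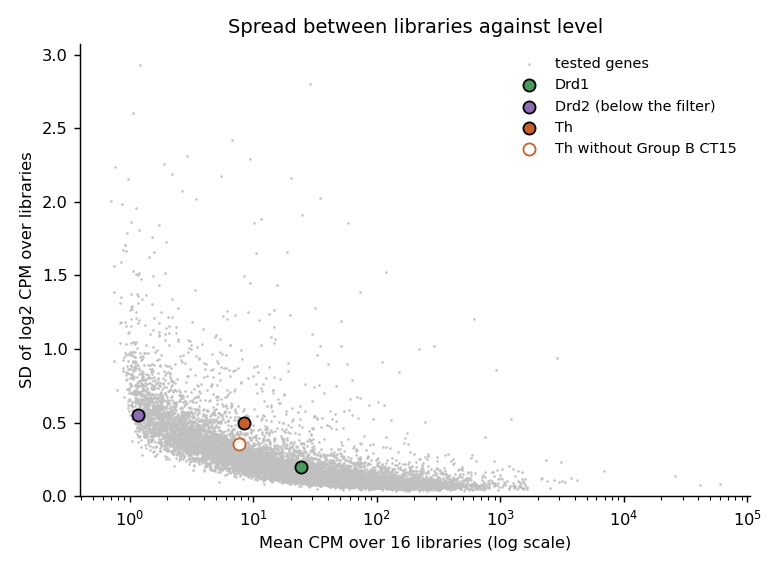
SD of log2 CPM over the 16 libraries against mean CPM (log scale) for the tested genes (grey) and for Drd1, Drd2 and Th (coloured). Th (SD 0.495) lies in the upper part of the cloud at its level, also without the CT15 library of Group B (open symbol, SD 0.351), and Drd2 is marked at its SD of 0.552 but cannot be read against the grey points, which all passed the filter that it did not.

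Group B was compared with Group A to ask whether the level differed with the state of the mother. The test was edgeR's quasi-likelihood test with Benjamini-Hochberg adjustment over all tested genes. The lesion and the restricted feeding occurred together in Group B, so their effects cannot be told apart in any comparison of the groups. Drd1 was 1.14-fold higher in Group B (log2 fold change 0.20, SE 0.083), which did not pass the adjusted test (adjusted p = 0.836). Its unadjusted p of 0.0287 was among the lowest 3.43% of the tested genes. The comparison called 0 of 13685 genes (0%) by edgeR and 0 by DESeq2, and 795 genes (5.81%) had an unadjusted p below 0.05. The Th log2 fold change was 0.26 (SE 0.233, adjusted p = 0.927) and was -0.014 (SE 0.176) without the CT15 library of Group B. Drd2, taken from the fit without a filter, had a log2 fold change of -0.12 (SE 0.307, adjusted p = 0.937), so that neither a higher nor a lower level could be seen at its depth. Within the subjective day (CT0 to CT9), the Drd1 log2 fold change of Group B over Group A was 0.24 (SE 0.114, adjusted p = 0.868), and within the subjective night (CT12 to CT21) it was 0.15 (SE 0.114, adjusted p = 0.921). For Th these values were -0.06 (SE 0.328, adjusted p = 0.999) by day and 0.58 (SE 0.332, adjusted p = 0.907) by night, the latter being -0.0086 without the CT15 library of Group B. Each of these comparisons called 0 genes by edgeR, although 770 and 748 genes were below an unadjusted p of 0.05, and by DESeq2 the day comparison called 11 and the night comparison 4. Without a filter edgeR called 22 by day and 6 by night, and without CT9 of Group A it called 4 by day. Without that library the Drd1 value by day was 0.38 (SE 0.102, adjusted p = 0.349).

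The genes were next examined for a daily change. Night was compared with day in each group by the same test. The log2 fold change of Drd1 from day to night was 0.18 in Group A (SE 0.115, adjusted p = 0.759) and 0.09 in Group B (SE 0.113, adjusted p = 0.875), and the difference between the groups was -0.09 (SE 0.161, adjusted p = 0.996). Without CT9 of Group A, its value in Group A was 0.32 (SE 0.102, adjusted p = 0.324). The mean of Drd1 in Group A was 21.2 ± 3.92 CPM by day and 24.1 ± 2.14 CPM by night (SD, n = 4 litters each). For Th the log2 fold change was -0.37 in Group A (SE 0.334, adjusted p = 0.861) and 0.28 in Group B (SE 0.326, adjusted p = 0.866). The latter was -0.32 (SE 0.249) without the CT15 library. Drd2 was at -0.71 (SE 0.436, adjusted p = 0.822) in Group A and -0.39 (SE 0.437, adjusted p = 0.840) in Group B. From day to night edgeR called 0 genes (0%) in Group A, where 1082 genes had an unadjusted p below 0.05 and DESeq2 called 20. In Group B it called 1 gene (0.00731%) and DESeq2 called 73.

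**Figure D3:**
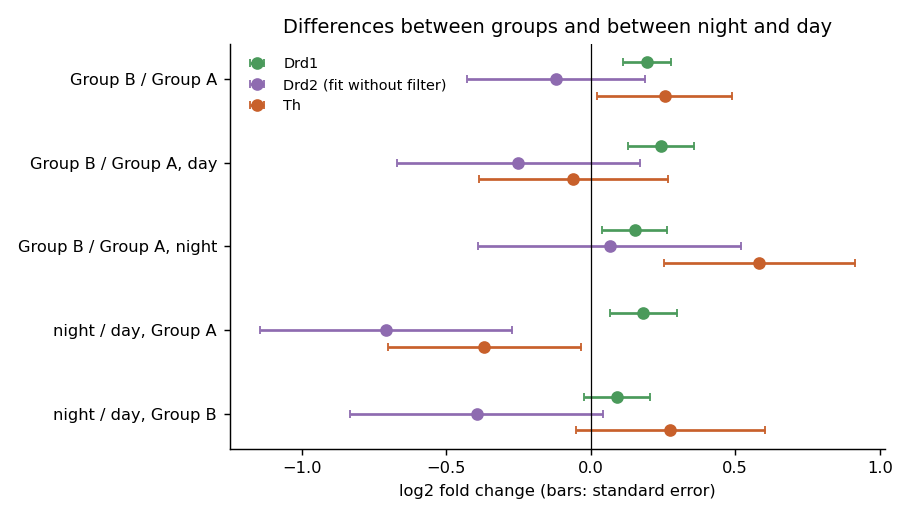
Log2 fold changes of Drd1, Drd2 (from the fit without a filter) and Th with their standard errors, for Group B over Group A at all times, by day and by night, and for night over day in each group. The Drd1 values of Group B over Group A were positive throughout (0.15 to 0.24), the errors of Drd2 were the widest, and the Th values differed in sign between comparisons; none passed the adjusted test.

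A 24-h cosine was then fitted to the counts. For a cosine shared by both groups, the peak of Drd1 was at CT13.2 with a peak-to-trough ratio of 1.26 (0.33 on the log2 scale), and the test was not passed (adjusted p = 0.251). Its unadjusted p of 0.0122 was among the lowest 4.84% of the tested genes, of which 1635 (11.9%) had an unadjusted p below 0.05 and 42 (0.307%) passed the adjusted threshold. DESeq2 gave an adjusted p of 0.171 for Drd1 and called 298 genes (2.18%). With cosines fitted to each group, the ratio of Drd1 in Group A was 1.35 with a peak at CT14.1 (adjusted p = 0.607). Its unadjusted p of 0.0222 lay in a set of 7.42% of genes with an unadjusted p below 0.05. In Group B the ratio was 1.20 with a peak at CT11.7 (adjusted p = 0.650). The cosines of the 2 groups were not shown to differ (adjusted p = 0.894), and the within-group tests called 1 gene in Group A (0.00731%) and 13 in Group B (0.095%). The test of the difference called 0 genes (0%) by edgeR and 4 by DESeq2, with 838 at an unadjusted p below 0.05.

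No cosine was called for Th either (shared cosine, ratio 1.16, adjusted p = 0.952). The fitted peak of CT19.5 depended on the CT15 library of Group B. Without it the peak was at CT1.75 with a peak-to-trough difference of 0.59 on the log2 scale, and the adjusted p was 0.446. For Drd2 the fitted ratio was 1.57 with a peak at CT7.30 (adjusted p = 0.660). A straight line from CT0 to CT21 gave a log2 change of 0.27 for Drd1 (SE 0.119, adjusted p = 0.331 by edgeR) and -0.26 for Th (SE 0.358, adjusted p = 0.822). The line was not tested against the cosine. It would also follow the age of the fetuses if the litters were sampled in that order, which the labels do not give. The methods of the study state that the sampled times span a range of fetal ages. The comparisons of night with day and the cosines can therefore also hold differences in age, which were not tested.

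Genes were also sorted into 5 models by Bayes information criterion weight (BICW), a number from 0 to 1 that gives the weight of a model among the 5, following the dryR classification used in the study. The models were no rhythm, a rhythm limited to Group A (Arhy) or to Group B (Brhy), the same rhythm in both (ABsync) and different rhythms (ABdiff), and a model was assigned above 0.5. ABsync was the best model of Drd1, with a weight of 0.510, just above the threshold, and Arhy followed with 0.277. Among the tested genes 5.03% were assigned to ABsync. The study had assigned Drd1 to ABsync from the same libraries. Neither the weight of Drd1 nor the rank of its shared cosine is therefore separate support for a rhythm. In ABsync the peak of Drd1 was at CT13.2 and the peak-to-trough ratio was 1.25. The assignment was lost when single libraries were left out. ABsync stayed above 0.5 without CT6 or CT18 of Group A or CT3, CT6 or CT15 of Group B (5 of 16), and was at or below it without any of the other 11. Arhy was then the best model without CT0 of Group B (weight 0.451, ABsync 0.277) and without CT12 of Group B (0.410, ABsync 0.303). The highest weight of ABsync, 0.684, was reached without CT15 of Group B.

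Th was assigned to no rhythm (0.797), as were 69.2% of the tested genes. Without CT15 of Group B, no model of Th reached 0.5: ABsync had 0.336, no rhythm 0.314 and Brhy 0.271. Drd2 was not sorted, since it was below the filter.

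**Figure D4:**
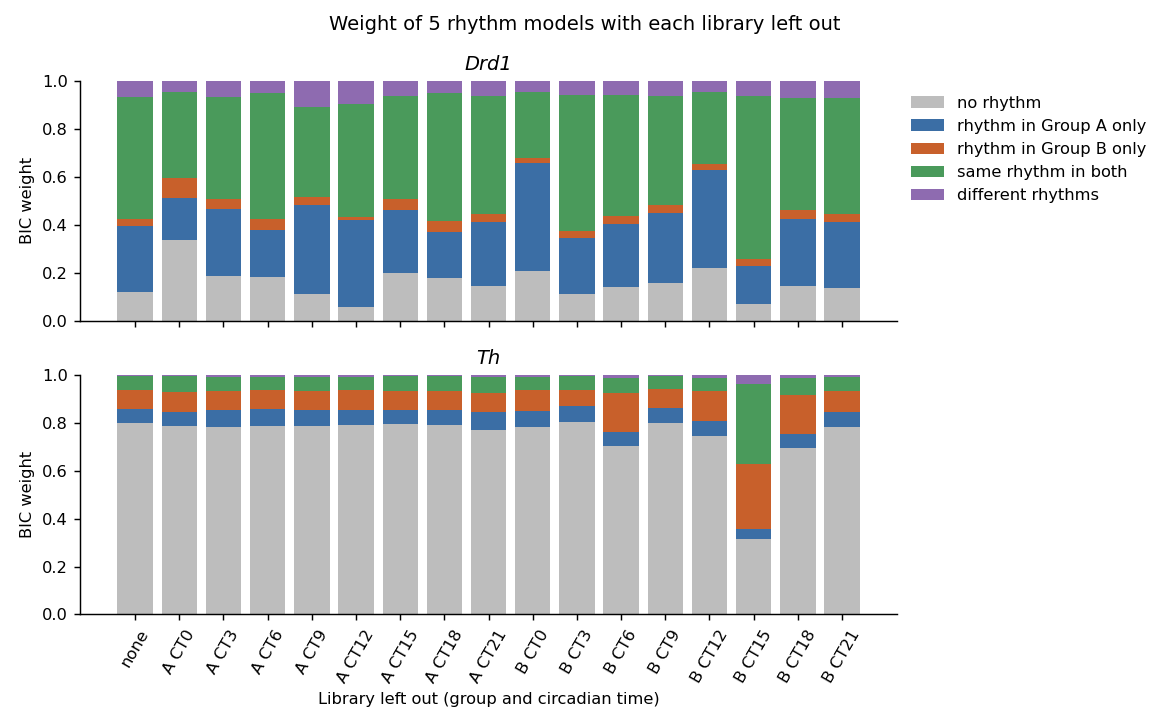
BIC weights of the 5 rhythm models (stacked, summing to 1) for Drd1 and Th with all libraries (none) and with each library left out in turn. For Drd1 the weight of the same rhythm in both groups ranged from 0.277 to 0.684, and for Th the weight of no rhythm fell below 0.5 only without CT15 of Group B.

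The 3 genes were compared with each other across libraries. Over all 16, Pearson's r of log2 CPM was 0.0484 between Drd1 and Drd2 (permutation p = 0.858, adjusted p = 0.858; Spearman's rho 0.221, permutation p = 0.411). It was -0.241 between Drd1 and Th (permutation p = 0.373, adjusted p = 0.732; rho -0.412, permutation p = 0.114), and 0.185 between Drd2 and Th (permutation p = 0.488, adjusted p = 0.732; rho 0.218, permutation p = 0.418). Leaving out the 2 libraries farthest from the median of the first gene gave r of 0.291, -0.144 and 0.301 for the 3 pairs. For Drd1 and Th this kept CT15 of Group B. With single libraries left out, r of this pair ran from -0.435 (without CT15 of Group B) to -0.0816 (without CT0 of Group A). On residuals from group and the shared cosine it was -0.456 (permutation p = 0.0755, adjusted p = 0.226, rho -0.282). Within Group B, Spearman's rho of Drd1 and Th was -0.810 (exact permutation p = 0.0218, adjusted over 3 pairs p = 0.0653, r = -0.532). In Group A the rho of this pair was 0.0714 (exact permutation p = 0.882, r = -0.368), and no pair passed the adjusted test in any of the 3 sets of libraries.

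The patterns most like those of Drd1 and Th were sought among the 11085 tested genes with a mean of at least 5 CPM, by Pearson's r of log2 CPM over the 16 libraries, which share depth and litter. For Drd1 the highest r was that of ENSRNOG00000015084 (0.873), the 5 highest ran from 0.845 to 0.873, and 19 genes were above 0.8. For Th the highest was ENSRNOG00000032463 (0.821), the 5 highest ran from 0.762 to 0.821, and 3 genes were above 0.8. Without CT15 of Group B these 5 ran from 0.487 to 0.804, the first of them fell to 0.554, and of the 3 genes above 0.8 only ENSRNOG00000008474 remained so (0.804). The median r over all genes searched was 0.0173 for Drd1 and 0.00657 for Th.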

How the data were processed

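RNA-Seq counts of 16 libraries were used. The authors deposited raw counts per Ensembl gene, without normalization or filter, made from single-end reads of rRNA-depleted, polyA-enriched RNA (stranded low-input kit), mapped to rn6 with HISAT2 2.1.0, with Salmon and StringTie also named in the submitters' processing notes. The strand setting is not given in the sources used here, so reads of overlapping antisense genes may not be told apart. No column was left unassigned.

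The re-analysis used R 4.3.3, edgeR 4.0.16 (TMM, quasi-likelihood F test), DESeq2 1.42.0, limma 3.58.1 and Python 3.11.15 with scipy 1.17.1. The main fits used the whole filtered table (at least 1.5 CPM in at least 3 libraries), Drd2 was read from a fit of the 24320 genes with a count in any library, and an alternative used the 12799 genes that had 10 or more counts in all libraries, each with Benjamini-Hochberg adjustment and a threshold of 0.05, and the rows of the members were read from them. Log2 CPM used a prior count of 0.5. Each test was run over all 16 libraries, with no replicate of any group and time. The p-values therefore rest on the scatter between libraries, in which litter and any time difference left out of the model are mixed. Model selection used DESeq2 size factors and dispersions. Relations used permutation tests (100000 resamples over 16 libraries, exact within a group), two-sided. The test procedures were checked on simulated counts. Promoter windows were taken from RefSeq (GRCr8), in which all 3 members matched by symbol, and none of their coordinates is of the build of the counts. The members and lists were chosen with earlier results of these data known. The rule for named genes was the members, listed dopamine genes, and the 5 genes most like Drd1 and Th, of which 1 for Drd1 and 2 for Th are printed. The 147 listed genes could not be found, because 0 of 47357 rows of the gene table give an Ensembl identifier, so the 17 lists, gene lengths and proteins were not analysed here. The alternatives tried were other scalings, filters and tools, circadian time as a block, a straight line, each group alone, and libraries left out.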

Additional observations from a re-analysis of the deposited data

Results flagged for a closer look

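In 6 checks (3 genes in 2 groups of 8 litters), the highest or lowest library was compared with its nearest neighbour as a share of the range of the group, against Dixon's critical value for 8 samples. Chance flags about 1 group in 20. Both results past the limit were of Th. In Group B, the CT15 library (20.1 CPM) lay above the next highest (10.8 CPM) by a gap of 0.629 of the range. In Group A, the CT0 library (12.1 CPM) lay above the next highest (8.12 CPM) by 0.617 of the range. Of all tested genes, 62 (0.453%) were likewise highest and past the limit in the CT15 library of Group B, and 77 (0.563%) in the CT0 library of Group A, against 39 to 219 genes over the 16 libraries. Each of these shares is for a single library. A gene can be flagged by any of the 8 libraries of a group, so these shares understate how often a group is flagged.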

How the results depend on the processing

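No alternative brought Drd1 or Th past an adjusted p of 0.05 (472 values, 2 of Th with no adjusted p from DESeq2, lowest adjusted p = 0.148 by edgeR). A direction counted as kept where the sign was the same or, for a cosine, the peak moved by at most 6 h. The straight line was counted as kept without a check of its direction. Many of the values come from fits with a single library left out, so they are not independent. Drd1 kept its direction in 235 of 236 values. The exception was the small difference between groups of its change from day to night. It was 0.0057 without CT15 of Group B and CT0 of Group A together, an exclusion chosen after seeing the data. With each library left out in turn, Drd1 ranged from 0.16 to 0.23 for Group B over Group A (0.18 to 0.38 by day, 0.094 to 0.20 by night), from 0.12 to 0.32 for night over day in Group A, from 0.033 to 0.13 in Group B, from -0.23 to -0.029 for the difference between them, and from 0.28 to 0.39 for the shared cosine. Th kept its direction in 211 of 236 values. With all libraries its cosine was 0.38 (peak CT2.13) within Group A and 0.55 (peak CT17.1) within Group B, the difference of cosines was 0.86, and the difference of night over day between groups was 0.64. Without CT15 of Group B and CT0 of Group A, values of Th turned in sign or by over 6 h in peak: the shared cosine was 0.41 (peak over trough, log2), the difference of cosines 1.02, the cosine within Group A 0.29 and within Group B 0.88, night over day in Group B -0.31, Group B over Group A 0.15 by day and -0.0063 by night, and the difference of night over day between groups -0.15. Without CT3 and CT15 of Group B, also chosen after seeing the data, the corresponding Th values were 0.70 for the shared cosine, 0.92 for the difference, 1.305 within Group B, -0.41 for night over day in Group B, 0.033 by day, -0.0090 by night and -0.042. With each library left out in turn, Th ranged from -0.014 to 0.38 for Group B over Group A, from 0.080 to 0.59 for the shared cosine, from 0.51 to 1.36 for the difference of cosines, from 0.29 to 0.58 within Group A, from 0.45 to 1.09 within Group B, from -0.45 to -0.16 for night over day in Group A, from -0.32 to 0.50 for night over day in Group B, from 0.051 to 0.87 for the difference between them, and from -0.22 to 0.15 by day and -0.0086 to 0.81 by night for Group B over Group A. For Drd2, Group B over Group A ranged from -0.25 to 0.087 (positive without CT9 of Group A), and r of Drd1 and Drd2 from -0.081 to 0.20 (negative without CT9 of Group A or CT6 of Group B). The BICW of ABsync for Drd1 ranged from 0.277 to 0.684 and that of no rhythm for Th from 0.314 to 0.804, while Gaussian fits, edgeR dispersions and TMM factors left both assignments in place, with 0.503 to 0.670 for Drd1.

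Group B against Group A called 0 genes under every alternative run. Other counts varied, and the cause was not tested. The shared cosine called 69 genes without a filter, 64 with at least 10 counts in every library, 298 by DESeq2, 69 by edgeR's robust fit, 14 without CT3 and CT15 of Group B, 1 to 92 with each library left out, and a straight line in its place called 84. The difference of cosines called 4 by DESeq2, 2 without CT15 of Group B and CT0 of Group A, and 0 to 2 with each library left out. Within Group A the cosine called 3 without a filter, 28 by DESeq2, 0 with the group fitted alone, 2 by the robust fit, 3 and 0 without the 2 pairs of libraries, and 0 to 3 with each library left out. Within Group B the counts were 21 without a filter, 133 by DESeq2, 5 with the group fitted alone, 23 without CT15 of Group B and CT0 of Group A, and 1 to 24. Night over day called 22 genes in Group A without a filter, 20 by DESeq2 and 0 to 5 with each library left out, and in Group B 19, 73 and 0 to 2, with 2 by the robust fit and 0 without either pair. Group B against Group A by day called 22 without a filter, 11 by DESeq2 and 0 to 4 with each library left out (4 without CT9 of Group A), by night 6 without a filter and 4 by DESeq2, and the difference of night over day between groups 2 and 1.

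Same-time libraries of the groups did not deviate together (correlations of -0.171 to 0.13, the highest at the same time for 1 of 8), so they share a time and not a pairing. With circadian time as a replicate block, the comparison of groups called 0 genes, and the log2 fold change was 0.20 for Drd1 (adjusted p = 0.553 by edgeR) and 0.17 for Th (adjusted p = 0.925). The shared cosine as a covariate gave 0.20 for Drd1 (SE 0.069, adjusted p = 0.534 by edgeR) and 0.25 for Th (SE 0.241, adjusted p = 0.890). Depth limits Drd2 above all, at 5 to 29 counts per library.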
